A study of Homo sapiens with 4 samples.

Results

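Transcripts filed under the RNA class misc_RNA were followed through polysome profiling of breast cancer cells. The class held 1085 of the 28198 rows of the gene table, and 501 of these were above 0 in at least 1 library. Members were chosen by level: a mean of at least 1 FPKM (fragments scaled to transcript length and to the mapped fragments of the library) over the 4 libraries, leaving out symbols that join 2 gene symbols of the same table. 4 misc_RNA symbols had that joined form and 0 of them reached the level, so that 94 transcripts remained. Because the level chose them, FPKM values are given below as a description. The members just inside the limit were ZNF252P and HNRNPA1P10, at means of 1.017 and 1.029 FPKM, and the rows just outside it were PDCL3P4 and PI4KAP2, at 0.985 and 0.976 FPKM.

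The cells were MDA-MB-231, an established line from a triple-negative breast cancer. They had been depleted of METTL3, the catalytic subunit of the m6A RNA methyltransferase, and then reconstituted by lentivirus with wild-type METTL3 (METTL3-WT) or with K177Q (METTL3-K177Q), in which glutamine takes the place of an acetylated lysine. From each genotype, cycloheximide-treated lysate was separated on a sucrose gradient into a sub-polysome pool (RNA with ribosomal subunits or single ribosomes) and a polysome pool (RNA with several ribosomes), and poly(A)-selected RNA of each pool was sequenced. Each of the 4 conditions had 1 listed sample, labelled replicate 2, so no difference below has a replicate check and no test or p-value is given. Translation efficiency was the polysome FPKM over the sub-polysome FPKM, on the log2(FPKM + 0.1) scale, which understates changes of low transcripts.

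Nearly all the members were pseudogenes, a word that the class name does not carry. All 94 matched a RefSeq gene (79 by symbol, 5 by gene ID and 10 by an older symbol), and RefSeq classed 91 as transcribed pseudogenes. The other 3, LOC93622 (now MRFAP1L2), MSL3P1 (now MSL3B) and NOTCH2NLR, are protein-coding genes in that annotation. None of the 14 classical small structural RNAs looked for (7SL, 7SK, vault and Y RNAs among them) was a member. Nor was any gene on short fixed lists of small nucleolar RNA hosts and nuclear lncRNAs. The list of hosts did not include C19orf48, a member whose span holds small nucleolar RNA genes. Of the 80 members with a GENCODE entry under a matching name, 50 were unprocessed pseudogenes, 17 processed, 8 unitary, 4 lncRNAs and 1 protein coding.

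Pseudogenes are copies or relics of genes that have lost the ability to make the original protein. A processed pseudogene arises when an mRNA is copied back into the genome and therefore has no introns of its own. An unprocessed pseudogene is a duplicated gene that kept its exon structure, and a unitary pseudogene is a formerly coding gene with no working copy left in the genome. When transcribed, their RNAs may still carry fragments of an open reading frame, and ribosomes can engage such RNAs without yielding a stable protein. Their reads can be hard to tell from those of the parent gene, and how the deposited values treat reads that match several places is not given in the sources used here.

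The following stretches show how close some members stood to the coding sequence of their parents. Each window holds the 60 coding bases with the most differences that aligned without a gap. Differences between the parent and a member are in capitals, and positions are counted from 1 at the first base of the parent's start codon. The genomic copies are from hg38. The H3P6 window (chr2:174719908-174719967, + strand) covers bases 1 to 60 of H3-3A, which encodes the replication-independent histone H3.3, and it shows 0 differences:
H3-3A: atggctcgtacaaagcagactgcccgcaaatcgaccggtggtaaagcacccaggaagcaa
H3P6: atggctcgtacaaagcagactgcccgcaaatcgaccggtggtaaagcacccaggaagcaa

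RPL21P28 (chr1:212051947-212052006, - strand) lay over bases 1 to 60 of RPL21, a protein of the large ribosomal subunit, with 1 difference:
RPL21: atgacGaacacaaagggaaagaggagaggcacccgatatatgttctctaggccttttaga
RPL21P28: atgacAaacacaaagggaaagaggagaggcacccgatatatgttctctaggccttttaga

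RPL13AP5 (chr10:96750501-96750560, + strand) and RPL13AP20 (chr12:12875712-12875771, + strand) lay over bases 214 to 273 of RPL13A, another large-subunit protein, with 1 and 7 differences:
RPL13A: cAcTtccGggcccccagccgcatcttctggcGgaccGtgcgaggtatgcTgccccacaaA
RPL13AP5: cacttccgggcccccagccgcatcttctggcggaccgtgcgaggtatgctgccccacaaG
RPL13AP20: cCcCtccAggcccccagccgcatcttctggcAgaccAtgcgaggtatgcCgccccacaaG

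ANXA2P2 (chr9:33624434-33624493, + strand) lay over bases 161 to 220 of ANXA2, a calcium-dependent phospholipid-binding protein, with 5 differences:
ANXA2: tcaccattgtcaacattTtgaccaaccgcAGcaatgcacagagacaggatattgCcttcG
ANXA2P2: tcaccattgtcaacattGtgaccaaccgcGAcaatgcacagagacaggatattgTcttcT

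Over the whole aligned coding sequence, identity was 100% for H3P6, 99.5% for RPL13AP5, 99.4% for RPL21P28, 98.4% for ANXA2P2 and 96.7% for RPL13AP20. A member was also compared with all GENCODE transcripts of other genes by the share of its 50-base words (50-mers) found there. The share was 50% or more in 26 members, from 10 to 50% in 21 and under 10% in 33, and 14 members had no transcript to compare. Results are given by these bands where they differ.

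The markers of the mesenchymal line were present: VIM, CD44, AXL, CAV1, EGFR and ANXA1 were at 9.97 to 1543 FPKM in every library. The 5 luminal or epithelial genes ESR1, PGR, CDH1, GATA3 and FOXA1 were at 0 to 4.95 FPKM, and PTPRC and PECAM1, of leukocytes and endothelium, at 0.013 to 1.81 FPKM. METTL3 was at 9.39 FPKM in METTL3-WT sub-polysome, 38.7 in METTL3-WT polysome, 5.07 in METTL3-K177Q sub-polysome and 29.5 in METTL3-K177Q polysome RNA. Both genotypes carry an introduced METTL3, so these levels do not check the labels. The table gives no read counts. From the smallest common step of the values, the libraries held roughly 26100000 to 27200000 fragments, and the counting errors below rest on that approximation.

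All 94 members were above 0 in every library, and 63 reached 1 FPKM in each of them. Their means ran from 1.02 to 300 FPKM with a median of 2.6, and 17 reached 10 FPKM. Together they took 0.114% of the summed FPKM in METTL3-WT sub-polysome RNA, 0.0891% in METTL3-WT polysome RNA, 0.102% in METTL3-K177Q sub-polysome RNA and 0.0873% in METTL3-K177Q polysome RNA. H3P6 alone made up 51.3% and 53.3% of the members' sum in the polysome libraries of METTL3-WT and METTL3-K177Q, against 23.1% and 21.7% in the sub-polysome libraries. Without H3P6 the members' share of all FPKM was 0.0877% and 0.08% in the sub-polysome libraries and 0.0434% and 0.0407% in the polysome libraries.

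**Figure D1:**
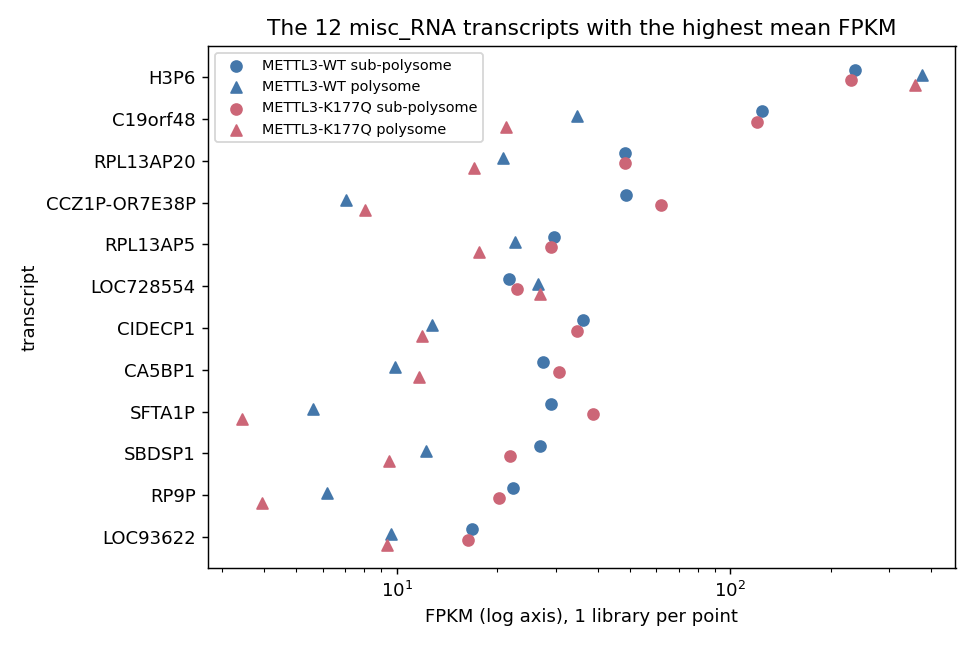
FPKM on a log axis of the 12 misc_RNA transcripts with the highest means, 1 point per library, with circles for sub-polysome and triangles for polysome RNA of METTL3-WT (blue) and METTL3-K177Q (red). In 10 of the 12 both polysome values lie below both sub-polysome values, and in H3P6 and LOC728554 they lie above.

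H3P6 had the highest level, with 236.6 FPKM in METTL3-WT sub-polysome, 374.5 in METTL3-WT polysome, 230.7 in METTL3-K177Q sub-polysome and 357.7 in METTL3-K177Q polysome RNA. Its polysome values were above its sub-polysome values in both genotypes. H3-3A, its parent, was listed at 13, 18, 4.63 and 17.5 FPKM in the same order, so that the pseudogene stood 22.6-fold above the parent by mean. All of the 411-base H3P6 transcript's 50-mers, and 95% of those of its 1059-base RefSeq span, occur in H3-3A. The other H3.3 gene, H3-3B, was at 127.3, 258.9, 122.4 and 234.4 FPKM. How many of the fragments listed under H3P6 came from H3-3A RNA was not tested.

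C19orf48 came second. It is a unitary pseudogene in current annotation (C19orf48P, chr19:50797704-50804594, - strand, 5 exons), and its span holds the small nucleolar RNA genes SNORD88A, SNORD88B and SNORD88C. It was at 124.7 FPKM in METTL3-WT sub-polysome, 34.6 in METTL3-WT polysome, 120.6 in METTL3-K177Q sub-polysome and 21.2 in METTL3-K177Q polysome RNA. The sub-polysome levels lay close together, and the polysome level was lower in METTL3-K177Q. Only 0.0557% of its 50-mers occur in another gene. On the log2 scale its translation efficiency was -1.85 in METTL3-WT and -2.50 in METTL3-K177Q, a difference of -0.66 with an approximate counting error of 0.063. With each library rescaled to the same total the difference was -0.36, which is within 1.5-fold, so the scaling moved it by more than the counting error.

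The polysome-poor pattern of C19orf48 was common among the members. The median log2 translation efficiency was -1.05 in METTL3-WT and -1.13 in METTL3-K177Q, which is a polysome FPKM 2.06-fold and 2.18-fold below the sub-polysome FPKM. The corresponding medians over all 10905 genes of at least 1 FPKM were 0.14 and 0.16. In METTL3-WT, 62 of the 94 members were at least 1.5-fold lower in polysome RNA and 5 at least 1.5-fold higher, where 19.1% and 28.1% of all genes were. In METTL3-K177Q the counts were 67 lower and 6 higher, where 21.3% and 30.2% of all genes were. The limit on the mean admits a transcript through either pool: 14 members reached 1 FPKM in both sub-polysome libraries and in neither polysome library, and 1 the other way round. Among the 63 members at 1 FPKM or more in every library, 36 were lower and 4 higher in METTL3-WT, where 16.8% and 28.3% of all such genes were, and 42 were lower and 5 higher in METTL3-K177Q, where 19.1% and 30.3% were. Both genotypes shared a direction in most members, with 75 below 0 in both, 7 above 0 in both and 12 on opposite sides. 57 members were at least 1.5-fold lower in both genotypes, and 41 were at least 2-fold lower in both. Such joint counts were not taken over all genes, so they do not show whether members differ from all genes in sharing a direction. With each library rescaled to the same total, 59 of the 94 in METTL3-WT and 50 in METTL3-K177Q were at least 1.5-fold lower, where 15.7% and 12.5% of all genes were.

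Between the classes of the table, members lay nearer to lncRNAs than to mRNAs. The 10383 mRNAs had median log2 translation efficiencies of 0.18 in METTL3-WT and 0.21 in METTL3-K177Q, and the 405 lncRNAs had -1.48 and -1.88. The spread among members was wide, from -2.93 to 1.22 in METTL3-WT and from -4.61 to 1.65 in METTL3-K177Q. FPKM is relative to each pool, so a ratio of 0 on the log2 scale does not mean equal amounts of RNA in the pools, and the differences between classes are what the ratio can show.

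**Figure D2:**
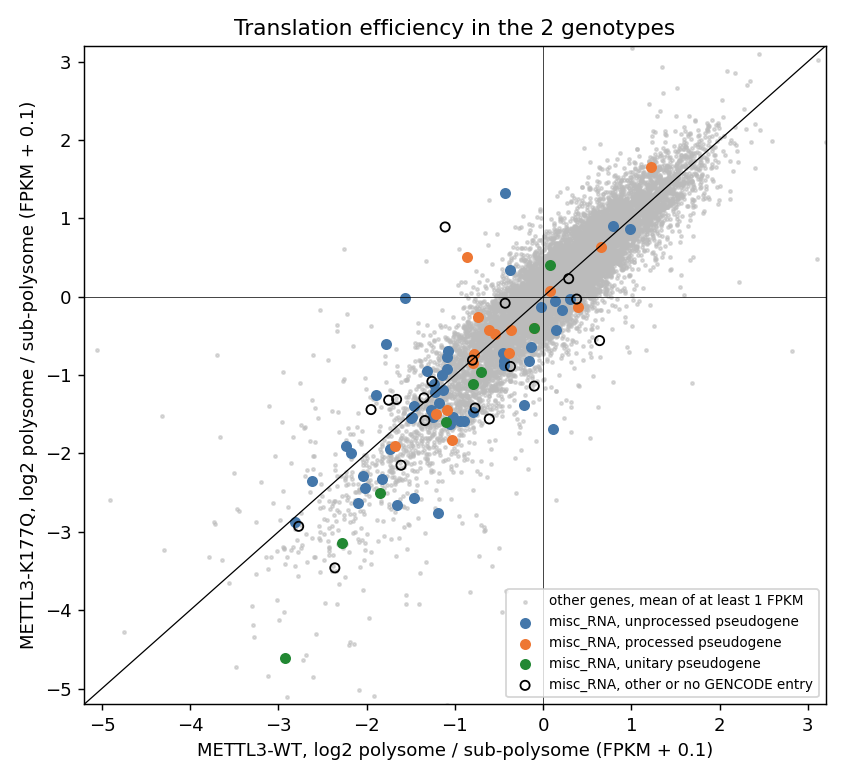
Log2 translation efficiency (polysome over sub-polysome FPKM, each + 0.1) in METTL3-WT (horizontal) and METTL3-K177Q (vertical), with other genes of at least 1 FPKM in grey and misc_RNA members coloured by GENCODE kind. Most members lie in the lower left, where both genotypes have values under 0, and 24 of the other genes lie beyond the axes.

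The kinds of pseudogene differed in their medians. These kinds are GENCODE labels and do not split the members cleanly by exons. In its longest transcript SMPD4BP, labelled processed, has 18 exons, and RPL23AP82, labelled unprocessed, has 1. The 50 unprocessed pseudogenes had medians of -1.14 in METTL3-WT and -1.30 in METTL3-K177Q, and the 8 unitary ones had -0.94 and -1.36. The 17 processed pseudogenes had the smallest distance from 0, at -0.61 and -0.43. After rescaling to equal totals, the processed ones moved to -0.49 and -0.032 and the unprocessed ones to -1.01 and -0.90. Medians were also taken by shared sequence, and how these bands fall among the kinds was not compared. Members with under 10% of their 50-mers elsewhere had medians of -1.25 in METTL3-WT and -1.44 in METTL3-K177Q. In the same order, those with 10 to 50% had -1.08 and -0.87, and those with 50% or more had -0.66 and -0.87. The part that shared reads play in these medians was not tested. In the band with under 10% shared, 25 of 33 members in METTL3-WT and 24 of 33 in METTL3-K177Q were at least 1.5-fold lower in polysome RNA. The shares of all genes were 19.1% and 21.3%. This band includes members under 1 FPKM in both polysome libraries, such as CD99P1 and ZNF204P.

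At the low end of the better expressed members (28 at a mean of at least 5 FPKM) stood WFDC21P, CCZ1P-OR7E38P, SFTA1P and LOC101927789. WFDC21P, a unitary pseudogene of the WAP domain family with 0% of its 50-mers elsewhere, was at 9.08 FPKM in METTL3-WT sub-polysome, 1.1 in METTL3-WT polysome, 10.2 in METTL3-K177Q sub-polysome and 0.322 in METTL3-K177Q polysome RNA. CCZ1P-OR7E38P, on chromosome 7, has a joined symbol but its parts are not both rows of the table, and its levels were 48.8, 7.05, 62.2 and 8.06 FPKM in the same order. SFTA1P, a relic of a surfactant-associated gene on chromosome 10, was at 29.1, 5.6, 38.8 and 3.44 FPKM. LOC101927789 is FAUP4, a copy of the gene for a ubiquitin-like protein fused to ribosomal protein eS30, and was at 11.9, 1.85, 10 and 1.89 FPKM. In these 4 members both polysome values lay below both sub-polysome values. The limit of 5 FPKM also admits a member through either pool. WFDC21P and LOC101927789 were under 5 FPKM in both polysome libraries, so they passed it through their sub-polysome levels.

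Only a few members were richer in the polysome pool. The 4 that were at least 1.5-fold higher in both genotypes were H3P6, ANXA2P2, RRP7BP and ANAPC1P2, named here after their values were seen. ANXA2P2 was at 1.51 FPKM in METTL3-WT sub-polysome, 3.63 in METTL3-WT polysome, 1.35 in METTL3-K177Q sub-polysome and 4.47 in METTL3-K177Q polysome RNA, and had the highest log2 translation efficiencies of the members in both genotypes, 1.22 and 1.65. ANXA2 itself was at 724.1, 2009, 841.1 and 2001 FPKM, with log2 translation efficiencies of 1.47 and 1.25, and 59.2% of the pseudogene's 50-mers occur in it. RRP7BP, a copy of a ribosome biogenesis gene, had log2 values of 0.79 and 0.90 beside 0.89 and 0.65 for RRP7A. ANAPC1P2, a partial copy of the gene for the largest subunit of the anaphase-promoting complex, had 0.98 and 0.87 beside 0.54 and 0.56 for ANAPC1. Its levels were 0.811 FPKM in METTL3-WT sub-polysome, 1.7 in METTL3-WT polysome, 0.96 in METTL3-K177Q sub-polysome and 1.83 in METTL3-K177Q polysome RNA. It was under 1 FPKM in both sub-polysome libraries, so it passed the limit on the mean through its polysome levels. Of its 50-mers, 75.4% occur in other genes.

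Among members of at least 5 FPKM, LOC728554, WASH2P and WASH7P followed H3P6 at the high end. LOC728554, on chromosome 5, was at 21.7 FPKM in METTL3-WT sub-polysome, 26.6 in METTL3-WT polysome, 22.9 in METTL3-K177Q sub-polysome and 26.8 in METTL3-K177Q polysome RNA. Its log2 translation efficiencies were 0.29 and 0.23, within 1.5-fold of 0. WASH2P was at 8.86, 11, 10.6 and 10.4 FPKM in the same order. WASH7P was at 9.83, 10.8, 10.2 and 9.79 FPKM, so that its pools differed little in both genotypes.

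The comparison with parent mRNAs set a member beside the coding gene that its symbol names or, failing that, the one sharing the most 50-mers with it (at least 10%), called its parent here. Some of these relations are distant, with a coding identity of 52.8% for SLC66A1L and SLC66A1 and 54.6% for GUSBP1 and GUSB, and the pairs include MSL3P1 and NOTCH2NLR, which RefSeq classes as coding. A parent in the table was found for 68 members, by name for 59 and by shared sequence for 9, and it reached a mean of 1 FPKM in 57 pairs with 48 parent genes. The member had the lower translation efficiency in 45 pairs in METTL3-WT, in 47 in METTL3-K177Q and in 41 in both. The median of the differences within pairs was -0.90 in METTL3-WT and -1.29 in METTL3-K177Q on the log2 scale. Members had medians of -0.80 and -0.92 and their parents 0.41 and 0.35. The member's mean level was below the parent's in 47 pairs. The scaling of a library cancels in such a difference, apart from the pseudocount. Pairs that share a parent are not independent of each other. The limit on the mean admits a member through either pool, here too. The pairs were not recounted for members at 1 FPKM or more in every library.

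**Figure D3:**
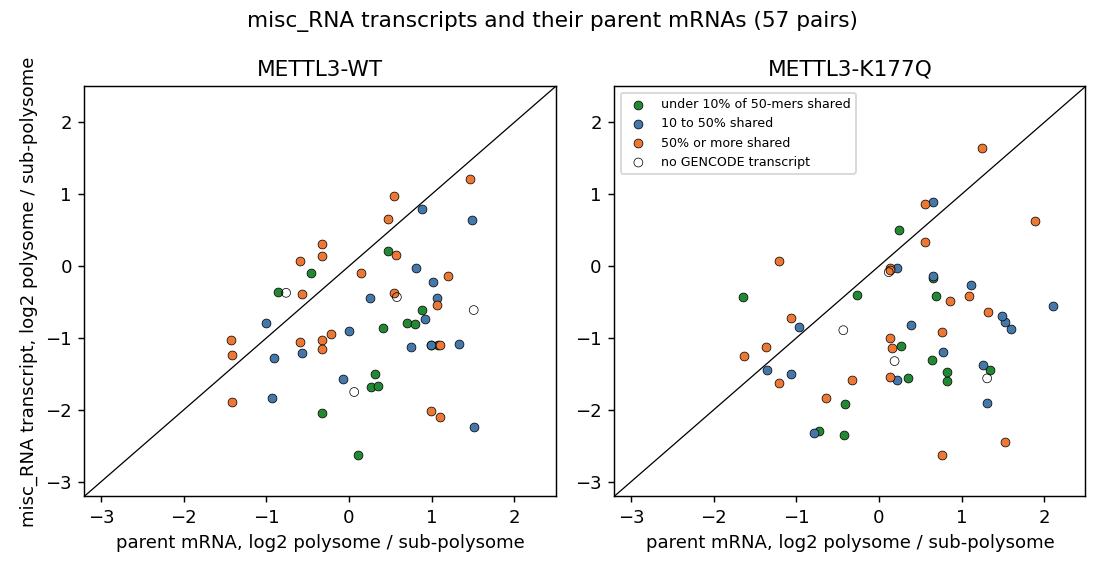
Log2 translation efficiency in 57 pairs of a parent mRNA (horizontal, 48 genes) and a misc_RNA member (vertical) in METTL3-WT (left) and METTL3-K177Q (right), coloured by the share of the member's 50-mers found in other genes, with the line of equality. Points lie below the line in 45 pairs on the left and in 47 on the right.

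The gap was present in each band of 50-mers shared with any other gene, which need not be the parent: GOLGA2P10, in the highest band, has 0% of its 50-mers in GOLGA2. In METTL3-WT the member was lower in 12 of 14 pairs with under 10% shared, in 16 of 17 with 10 to 50% and in 14 of 22 with 50% or more, with median differences of -1.66, -0.90 and -0.44. In METTL3-K177Q the counts were 12, 15 and 16, with median differences of -1.52, -1.55 and -1.16. NSUN5P2, a copy of an rRNA methyltransferase gene, showed a wide gap: it was at 3.11 FPKM in METTL3-WT sub-polysome, 0.692 in METTL3-WT polysome, 3.57 in METTL3-K177Q sub-polysome and 0.575 in METTL3-K177Q polysome RNA. NSUN5 was at 11.2, 22.4, 7.67 and 22.4 FPKM. The pseudogene was thus lower and the parent higher in the polysome pool of both genotypes. NSUN5P2 was under 1 FPKM in both polysome libraries, so it passed the limit on the mean through its sub-polysome levels. Processed pseudogenes had a smaller gap than unprocessed ones, with the member lower in 8 of 15 against 29 of 33 pairs in METTL3-WT and in 9 of 15 against 29 of 33 in METTL3-K177Q.

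Near-identical pairs fell on either side in level. RPL21P28 was at 14.3 FPKM in METTL3-WT sub-polysome, 6.98 in METTL3-WT polysome, 21.1 in METTL3-K177Q sub-polysome and 5.83 in METTL3-K177Q polysome RNA, whereas RPL21 was listed at 2.71, 0.942, 2.77 and 1.74 FPKM. RPL13AP5 showed the reverse, at 29.7, 22.6, 29.1 and 17.7 FPKM, beside 3306, 2223, 3634 and 1740 FPKM for RPL13A. HNRNPA1P10, with a coding identity of 99.6% to the hnRNP A1 gene, was at 1.58, 1.05, 0.882 and 0.604 FPKM beside 256.0, 533.2, 254.2 and 461.3 FPKM for HNRNPA1. Levels of such pairs are uncertain where reads fit both.

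8 members were ribosomal protein pseudogenes. Their median log2 translation efficiency was -1.05 in METTL3-WT and -1.57 in METTL3-K177Q, with a range from -2.62 to 0.076 in METTL3-WT and from -2.35 to 0.078 in METTL3-K177Q. RPL13AP20 was at 48.2 FPKM in METTL3-WT sub-polysome, 20.8 in METTL3-WT polysome, 48.3 in METTL3-K177Q sub-polysome and 17 in METTL3-K177Q polysome RNA. RPL13A had log2 translation efficiencies of -0.57 and -1.06, compared with -1.21 and -1.50 for RPL13AP20 and -0.39 and -0.72 for RPL13AP5. RPSAP52, a copy of the laminin receptor gene RPSA that lies on the opposite strand of HMGA2, was at 13.1, 4.03, 18 and 4.73 FPKM, and 3.29% of its 50-mers occur elsewhere.

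4 members came from the WASH family, copies of the gene for a subunit of a complex that nucleates actin on endosomes. WASH8P was at 17.5 FPKM in METTL3-WT sub-polysome, 8.57 in METTL3-WT polysome, 19.1 in METTL3-K177Q sub-polysome and 6.49 in METTL3-K177Q polysome RNA, and WASH3P at 8.63, 3.82, 7.24 and 3.57 FPKM. These were polysome-poor in both genotypes, at log2 values of -1.02 and -1.54 for WASH8P, whereas WASH2P and WASH7P were within 1.5-fold of 0. The family members share between 63.2% and 92.5% of their 50-mers with other genes, each other included, so their separate levels are uncertain.

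4 members were copies of PMS2, a DNA mismatch repair gene. PMS2P4 was at 7.72 FPKM in METTL3-WT sub-polysome, 1.02 in METTL3-WT polysome, 6.34 in METTL3-K177Q sub-polysome and 0.777 in METTL3-K177Q polysome RNA. The family's median log2 translation efficiency was -1.33 in METTL3-WT and -2.66 in METTL3-K177Q. Between genotypes, 3 of the 4 were at least 1.5-fold lower in METTL3-K177Q, where 7.03% of all genes were. The log2 differences were -1.57 for PMS2P2, -1.11 for PMS2P1, -0.66 for PMS2CL and -0.07 for PMS2P4. Approximate counting errors were 0.58, 0.55, 0.31 and 0.28 in that order. In METTL3-K177Q polysome RNA, PMS2P2 was at 0.328 FPKM and PMS2P1 at 0.918 FPKM. After rescaling, 2 of the 4 were at least 1.5-fold lower, where 2.65% of all genes were. Of the family, PMS2P4 alone had under 10% of its 50-mers elsewhere (8.89%).

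The remaining members with high levels were mostly unprocessed copies. CIDECP1, from a lipid droplet protein gene, was at 36.2 FPKM in METTL3-WT sub-polysome, 12.8 in METTL3-WT polysome, 34.8 in METTL3-K177Q sub-polysome and 11.9 in METTL3-K177Q polysome RNA. CA5BP1, from a mitochondrial carbonic anhydrase gene on the X chromosome, was at 27.4, 9.86, 30.7 and 11.7 FPKM. SBDSP1, from the gene of a ribosome maturation factor, was at 26.9, 12.2, 21.8 and 9.5 FPKM. All of these had both polysome values below both sub-polysome values. RP9P, from a retinal disease gene for a splicing-related protein, was at 22.3, 6.19, 20.2 and 3.95 FPKM. LOC93622, the protein-coding MRFAP1L2, was at 16.8, 9.64, 16.4 and 9.35 FPKM. Its log2 translation efficiency was -0.80 in METTL3-WT and -0.81 in METTL3-K177Q.

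Between the genotypes, members had a slightly lower translation efficiency in METTL3-K177Q, with a median log2 difference of -0.20 beside -0.0095 over all genes. When each library was rescaled to the same total, the median of all genes moved to 0.29 and that of the members to 0.10. The sign of the members' median thus depends on the scaling. Their distance from all genes was -0.19 both ways, which rescaling could not change apart from the pseudocount, as it shifts every gene alike. On the deposited scale, 18 members were at least 1.5-fold lower and 7 at least 1.5-fold higher, where 7.03% and 4.08% of all genes were. After rescaling, 10 of the 94 were lower and 18 higher, where 2.65% and 18.2% of all genes were, so the share of members that were higher was then near that of all genes. lncRNAs had a median of -0.37 and mRNAs of -0.0016.

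Within the polysome pool the members' median was -0.18 on the log2 scale (METTL3-K177Q over METTL3-WT), with 17 at least 1.5-fold lower and 5 at least 1.5-fold higher, beside 3.13% and 2.13% of all genes. In the sub-polysome pool the median was 0.038, with 7 at least 1.5-fold lower and 8 at least 1.5-fold higher, beside 2.94% and 4.01% of all genes. After rescaling, these medians were -0.087 in polysome and -0.16 in sub-polysome RNA, where all genes had 0.068 and -0.21, so that which pool shifted more depends on the scaling. 14 of the 18 members with the lower translation efficiency were lower in polysome and higher in sub-polysome RNA of METTL3-K177Q. Their selection favours this split, because the difference in translation efficiency is the polysome change minus the sub-polysome change. The same share was not taken over all genes. All 8 unitary pseudogenes had a lower polysome level in METTL3-K177Q, with a median of -0.57 on the log2 scale, where 53.7% of all genes were lower. After rescaling all 8 were again lower, with a median of -0.49, where 39.1% of all genes were.

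**Figure D4:**
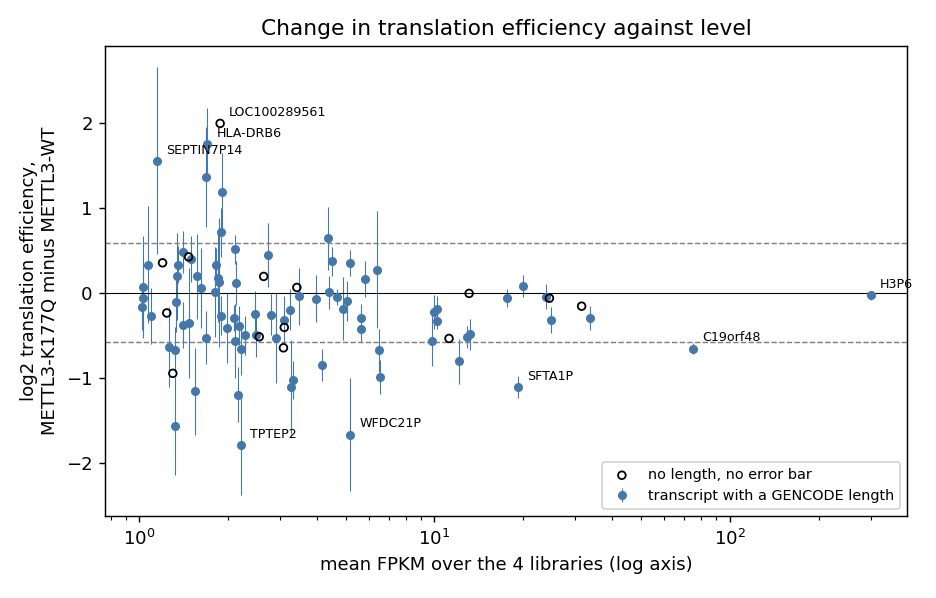
Log2 difference in translation efficiency (METTL3-K177Q minus METTL3-WT) against mean FPKM on a log axis, with bars of 1 approximate counting error for the 80 members with a transcript length and dashed lines at 1.5-fold. The 7 members above the upper line all have means under 5 FPKM, and 6 of the 18 below the lower line have means of at least 5 FPKM.

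Level bore on the size of these differences. Among the 28 members of at least 5 FPKM, 24 had a difference below 0, 6 were at least 1.5-fold lower and 0 at least 1.5-fold higher, where 56.7%, 5.69% and 1.22% of all genes at that level were. The approximate counting error of the difference had a median of 0.15 in the 24 of these with a length, and of 0.33 in the 56 at 1 to 5 FPKM, where it reached 1.1. After rescaling to equal totals, 14 of the 28 had a difference below 0, 3 were at least 1.5-fold lower and 1 at least 1.5-fold higher, where 21.7%, 1.25% and 11.9% of all genes at that level were.

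The 5 lowest of the 28 were WFDC21P, SFTA1P, STAG3L4, RPL21P28 and SUZ12P1. WFDC21P had a log2 difference of -1.67 with a counting error of 0.67, since its polysome level in METTL3-K177Q was 0.322 FPKM. SFTA1P had -1.11 with a counting error of 0.13. STAG3L4, a copy of part of the gene for a meiotic cohesin subunit, was at 9.4 FPKM in METTL3-WT sub-polysome, 2.9 in METTL3-WT polysome, 12 in METTL3-K177Q sub-polysome and 1.82 in METTL3-K177Q polysome RNA, a difference of -0.99 with a counting error of 0.2. RPL21P28 had -0.81 with a counting error of 0.26. SUZ12P1, a copy of the gene for a core Polycomb repressive complex subunit, was at 9.74, 5.19, 8.26 and 2.7 FPKM, a difference of -0.68 with a counting error of 0.25. After rescaling, RPL21P28 at -0.51 and SUZ12P1 at -0.39 were within 1.5-fold, and the other 3 were still past it, at -1.44, -0.81 and -0.70.

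The 5 highest of the 28 were within 1.5-fold on the deposited scale. RNF216P1, from a ubiquitin ligase gene, was at 8.21 FPKM in METTL3-WT sub-polysome, 2.52 in METTL3-WT polysome, 7.13 in METTL3-K177Q sub-polysome and 2.81 in METTL3-K177Q polysome RNA, a log2 difference of 0.35 with a counting error of 0.15, and of 0.65, past 1.5-fold, after rescaling. LOC101927789 had 0.27 with a counting error of 0.69, WASH3P 0.16 with 0.21 and CA5BP1 0.077 with 0.13. LOC93622 had -0.0096 and no transcript length to give an error from.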

How the data were processed

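RNA of the sub-polysome and polysome pools of MDA-MB-231 cells of both genotypes was sequenced from poly(A)-selected directional libraries. The FPKM values were computed and deposited by the authors. The submitters' processing notes name STAR 2.7, StringTie 2.1.5 and hg38, and the annotation and the treatment of reads with several matches are not given in the sources used here. Each condition had 1 listed sample. The table holds 4 further columns, whose names carry the number 1 in place of 2. They matched no listed sample and were not used, so the values here have no replicate check. The members and gene lists were chosen with earlier results of these data known. Translation efficiency was log2(polysome FPKM + 0.1) minus log2(sub-polysome FPKM + 0.1). The background was the 10905 genes that reached a mean of 1 FPKM, and 1.5-fold, the study's threshold, counted as higher or lower. Members were named by rule: the 12 highest means, the 5 highest and 5 lowest genotype differences and the 4 highest and 4 lowest translation efficiencies among members of at least 5 FPKM, and the rows next to the limit. Others are named as family examples or after their values were seen.

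Members were matched to RefSeq GRCh38.p14 and GENCODE 44. A parent was assigned by symbol without a limit on identity, or was the mRNA sharing the most 50-mers (at least 10%). Pairs were aligned with Biopython 1.88, and tables were handled with pandas 2.3.3. Depth was approximated from single-transcript genes, in which FPKM times length clustered at the step taken as 1 fragment, which gave roughly 26100000 to 27200000 per library. The limits of that cluster were set after seeing the values, and the resulting errors cover counting alone. The calculation was tested on simulated data. Alternatives were pseudocounts, level filters, rescaling to equal totals (TPM), median-of-ratios size factors, a fold of 2, joined symbols kept, and members with little shared sequence.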

Additional observations from a re-analysis of the deposited data

Results flagged for a closer look

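12 members had log2 polysome to sub-polysome ratios on opposite sides of 0 in the genotypes. The same count was not taken over all genes, and the side of 0 depends on how each library is scaled. With 1 library per condition, none of these differences was tested. LOC100289561 alone was past 1.5-fold on both sides, with -1.11 in METTL3-WT and 0.89 in METTL3-K177Q, a difference of 1.99. It had no transcript length to give a counting error from. HLA-DRB6, a pseudogene of the MHC class II beta chain, went from -0.43 to 1.32, a difference of 1.75 with an approximate counting error of 0.42. It was at 1.53 FPKM in METTL3-WT sub-polysome, 1.11 in METTL3-WT polysome, 1.15 in METTL3-K177Q sub-polysome and 3.02 in METTL3-K177Q polysome RNA, so that the last library stood above the others. FCF1P2 differed by 1.36 (counting error 0.59) and ANAPC1P4 by 0.71 (0.29).

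The other 8 were lower in METTL3-K177Q. TPTEP2, a copy of a testis phosphatase gene, had a ratio of 0.11 in METTL3-WT and -1.69 in METTL3-K177Q. The difference was -1.79 with a counting error of 0.59. Its highest library was METTL3-K177Q sub-polysome at 4.26 FPKM, beside 1.25 to 1.75 in the others. BCRP3 had 0.64 and -0.56, a difference of -1.20 with a counting error of 0.32. GOLGA2P10 differed by -0.57 (counting error 0.43), ABCA11P by -0.53 (0.31) and LOC100233156 by -0.41 (no length). PPP4R1L differed by -0.39 (0.23), WASH2P by -0.33 (0.1) and WASH7P by -0.19 (0.15). WASH2P and WASH7P had means of 10.2 FPKM and the other 10 had means under 5 FPKM.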

How the results depend on the processing

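No paired analysis was possible because each condition had 1 listed sample and the columns that matched no sample were not used. The median translation efficiencies of the members stayed below 0, and below those of mRNAs, under every alternative run. TPM and size factors shift members and mRNAs alike, apart from pseudocount and level limit, so they hardly test the distance from mRNAs. The genotype comparison depended on scaling. With TPM, which 100 transcripts passed at a mean of 1, the median difference in translation efficiency reversed from -0.20 to 0.10 and the sub-polysome median from 0.038 to -0.14, the members at least 1.5-fold higher numbered 21 beside 13 lower, and the medians in METTL3-WT and METTL3-K177Q were -0.89 and -0.71. All genes moved with them, to 0.29 and -0.21 in these comparisons. With size factors the METTL3-K177Q median was -1.23. For the counts of members in this section, shares of all genes at the same setting were taken only at 5 FPKM. The other counts therefore do not show whether members differ from all genes.

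With a pseudocount of 1 FPKM the medians were -0.67 and -0.80, the differences from mRNAs -0.83 and -0.98, and 11 members were at least 1.5-fold lower. Without the limit of 1 FPKM, the 497 transcripts above 0 in at least 1 library, joined symbols left out, had medians of -0.27 and -0.26. Their differences from mRNAs were -0.36 in both genotypes. The genotype medians were -0.047 for translation efficiency and 0.00 for polysome RNA, with 96 higher and 114 lower. At a mean of at least 5 FPKM, 28 members had a METTL3-K177Q median of -1.52, differences from mRNAs of -1.39 and -1.75, a genotype median of -0.30, and 0 higher and 6 lower. With at least 1 FPKM in every library the medians were -0.79 and -0.95, the differences from mRNAs -0.98 and -1.17, and 10 were lower. At 2-fold, 8 were lower. In the 33 members with under 10% of 50-mers elsewhere, an alternative chosen after seeing the data, the medians were -1.25 and -1.44, the differences from mRNAs -1.44 and -1.65, the sub-polysome median reversed to -0.028, and 2 were higher and 6 lower. Joined symbols changed nothing, as 0 reached the level. Under TPM all 23 named members moved by at least 0.1 on the log2 scale and 9 changed sign (H3P6 from -0.03 to 0.27, for example), though none of the 6 past 1.5-fold did. Of these 6, C19orf48 (-0.36), RPL21P28 (-0.51) and SUZ12P1 (-0.39) came within 1.5-fold, and RNF216P1 (0.65) went past it. With a pseudocount of 1 FPKM SUZ12P1 (-0.53) came within 1.5-fold. The other pseudocount and the size factors changed no sign and no call of these members. The cause of these shifts was not tested beyond the construction of each alternative. Depth limits members near 1 FPKM, whose counting errors reached 1.1.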
